A study of Mus musculus with 6 samples.

Results

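The subunits, regulators and assembly factors of the proteasome were examined in the organ of Corti, the strip of the cochlea that holds the hair cells, in mice at postnatal day 15. All animals had a C57BL/6J-129/Sv background, the knockout arrays carried RNA of mice without a functional Pjvk gene (Pjvk-/-), and the wild-type arrays carried RNA of Pjvk+/+ mice, with 3 arrays per genotype and no treatment named. Pejvakin, the product of Pjvk, belongs to the gasdermins, and mutations in its gene cause hearing loss. The labels do not say whether the arrays of a genotype came from separate animals. The p-values therefore cover the spread between the arrays, and that spread may be technical. Which part of Pjvk was altered, and whether in all cells, is not given in the labels.

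Members were taken by name. All probe sets whose single gene symbol in the platform annotation begins with Psma, Psmb, Psmc, Psmd, Psme, Psmf or Psmg were included, which gave 56 of 35557 probe sets and 50 of 19938 genes. Psmb8, Psmb9, Psmb10, Psme1 and Psme2 were set apart as the interferon-induced subunits. The prefix also caught Psmc3ip, a meiotic recombination factor, and Psme3ip1, a protein that binds an activator, neither of which is a proteasome subunit. A probe set shared by Psme2 and its near copy Psme2b carried both symbols and was left out. For 5 genes with several probe sets (Psma3, Psma5, Psmb3, Psmc1 and Psmd2) the one with the highest mean was used. In these bulk samples fewer cells of a type and less RNA per cell cannot be told apart. Values are probe set summaries on a log2 scale, in which a difference of 1 is a doubling, and differences are always knockout minus wild-type. Probe sets bind with different strength, so the level of one gene was not set against that of another.

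The proteasome degrades proteins that carry ubiquitin chains. Its 20S core particle is a barrel of alpha and beta rings, with the cutting sites inside on Psmb5, Psmb6 and Psmb7. The 19S cap, made of a ring of ATPases (Psmc genes) and of non-ATPase subunits (Psmd genes), receives, unfolds and threads the substrate. Interferon, above all interferon gamma, induces Psmb8, Psmb9 and Psmb10, which replace Psmb5, Psmb6 and Psmb7 in newly built cores and form the immunoproteasome. It also induces Psme1 and Psme2, which together form the PA28 activator. Immunoproteasomes yield peptides that suit presentation by class I histocompatibility molecules and are abundant in cells of the immune system. When proteasomes are inhibited, the transcription factor NRF1 (Nfe2l1) raises the genes of core and cap together.

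Markers of the labelled tissue were read on each array. The 11 listed hair cell markers had a mean level of 8.09 to 8.15 in the knockout arrays and 8.06 to 8.08 in the wild-type arrays, and the 11 supporting cell markers 8.80 to 8.87 and 8.75 to 8.79. These levels do not by themselves show the tissue, since probe sets differ in strength. Both list means were slightly higher in every knockout array than in any wild-type array. Within each list the markers were split, with 5 lower and 6 higher (medians 0.03 and 0.05). The supporting cell markers ran from -0.21 for Prox1 (SE 0.06) to 0.45 for Tectb (SE 0.07, adjusted p = 0.0923). The dim Pjvk probe set was lower in each knockout array (4.33 ± 0.11) than in each wild-type array (4.92 ± 0.16; SD, n = 3 each), without passing the adjusted test (adjusted p = 0.105). Y-linked genes were lower in the knockout as well, with a mean of 7.39 to 7.58 against 7.65 to 8.05, so the Y-linked level moved with the genotype, and its part in the results was not tested beyond the fit with it as a covariate. Across all genes limma called 7 at an adjusted p under 0.05, which is 0.0351% of those tested, all of them lower. Among them were Dct, a melanocyte gene (-1.86, SE 0.17, adjusted p = 0.0115), and Ttn, a muscle gene (-0.95, SE 0.06, adjusted p = 0.00206). Of 12 skeletal muscle markers 9 were higher and 3 lower (median 0.12), with 5 higher and 2 lower at an unadjusted p under 0.05, and of 7 melanocyte markers 4 were lower and 3 higher (median -0.10). Over all genes 5.74% were higher and 6.66% lower at an unadjusted p under 0.05. Of these markers, 11 of the 12 and 6 of the 7 lay below the median level of all genes. In deciles 1 to 5 of signal level, between 27.2% and 44.9% of all genes were lower. Single genes listed as markers of other tissues, Dct and Ttn among them, thus differed between the genotypes. Ttn went against the 9 muscle markers that were higher, and its distance from Pjvk on the chromosome was not read. The part of other tissues in the results was not tested. The number of calls was 3 without knockout replicate 3 and 2 without wild-type replicate 1 or wild-type replicate 2.

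No member of the proteasome passed the test. The smallest adjusted p among the 50 genes was 0.273, for Psmg3. At an unadjusted p under 0.05, 1 member was lower, Psme1, against 6.66% of all genes, and 1 was higher, Psmg3, against 5.74%. In either direction 12.4% of all genes reached that level. By direction, 41 members read lower and 9 read higher. Their median difference was -0.05, and they ranged from -0.23 for Psmg4 to 0.21 for Psmg3. Over all genes tested 53.8% were lower and the median was -0.01. The groups did not overlap for 8 members, 7 of them lower in the knockout. Among all genes 17.8% did not overlap, 11.3% with the knockout lower and 6.59% with it higher. Of the brighter 9969 genes 18.5% had all knockout arrays lower. The 95% confidence interval of the difference lay within 1.2-fold either way for 40 of the 50 members, as it did for 61.1% of all genes. Over the 50 members the intervals, which are not adjusted for their number, reached no lower than -0.48 and no higher than 0.34.

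**Figure D1:**
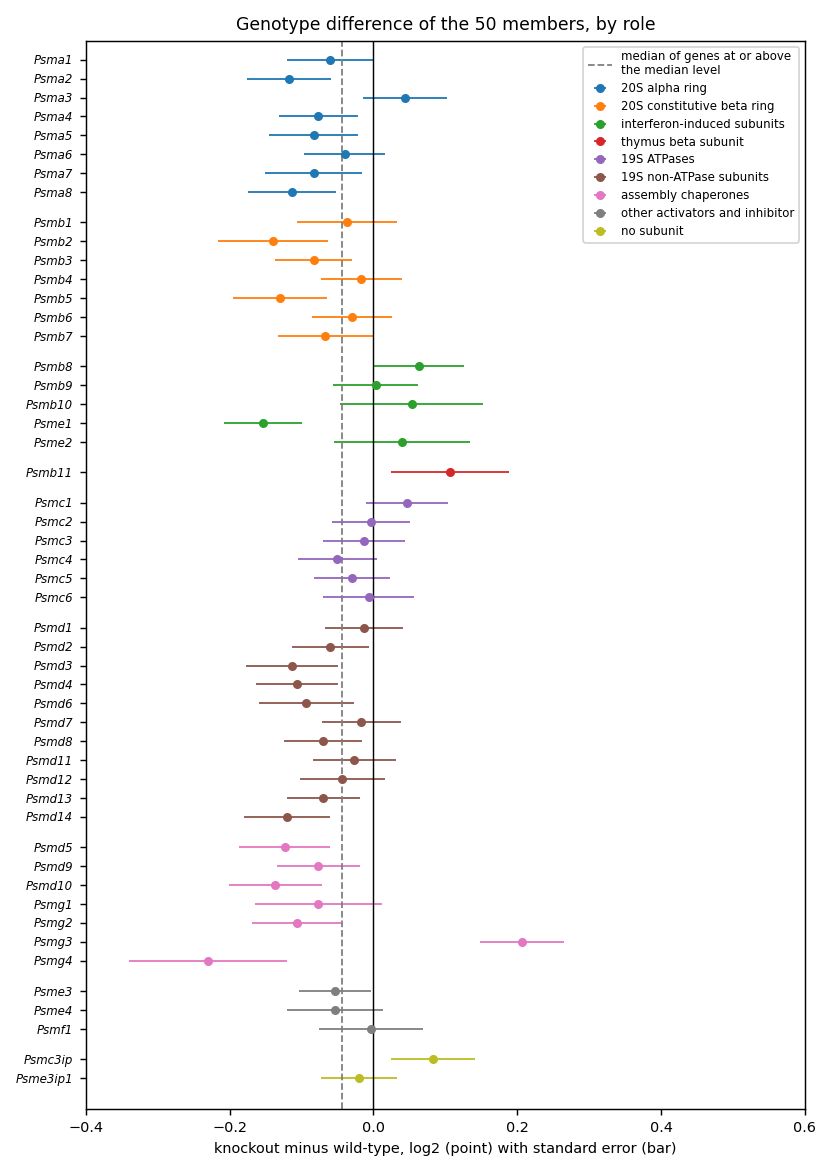
Genotype difference of each of the 50 members, grouped by role. Points give the knockout minus wild-type difference on the log2 scale, bars its standard error from the fit over all genes (3 arrays per genotype), and the dashed line the median of -0.04 over the 9969 genes at or above the median level. Most points sit slightly left of 0, Psmg3 stands at 0.21 and Psmg4 at -0.23.

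The members were also read against genes of like signal level. Of the members, 44 lay at or above the median level of all genes, and 39 of these were lower, with a median of -0.06. Among all 9969 genes at or above that level 72.1% were lower and the median was -0.04. In level decile 8, 79.0% of all genes were lower (median -0.06), and all 10 members there were lower (median -0.09). In decile 9, 77.2% of all genes and all 13 members were lower (medians -0.05 and -0.08). In decile 10, 75.9% of all genes and 14 of 16 members were lower (medians -0.04 and -0.035). In decile 6, 59.6% of all genes and none of 3 members were lower. Whether members differ from genes of like level was not tested. The 6 members below the median level had a median of 0.07, with 2 lower and 4 higher. When the arrays were made equal over the whole range of levels, the surplus was not seen: 27 of 50 members were lower after quantile normalization (median -0.005) and 26 after cyclic loess (median -0.002). After the same steps 49.3% and 50% of the genes at or above the median level were lower. Centring each array on its median, which does not act on the trend with level, left 38 members lower (median -0.04).

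**Figure D2:**
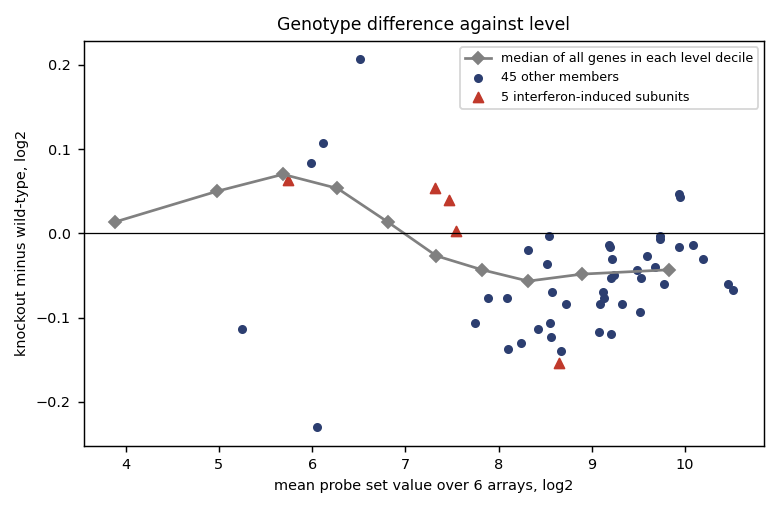
Knockout minus wild-type difference (log2) of each member against its mean level over the 6 arrays (log2). Grey diamonds joined by a line give the median of all genes in each of 10 level classes, from 0.07 in decile 3 to -0.06 in decile 8, blue points the 45 other members and red triangles the 5 interferon-induced subunits.

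Of the 5 interferon-induced subunits, 4 were above 0 and 1 below, with a median of 0.04. By level, Psmb8 lay in decile 3, where all genes had a median of 0.07 and 27.2% were lower. Psmb9, Psmb10 and Psme2 were the 3 members of decile 6, where all genes had a median of -0.03. Psme1, the lower gene, lay in decile 9, where all genes had a median of -0.05. Whether these subunits differ from genes of like level was not tested. Psmb8, the induced counterpart of Psmb5, read 5.81, 5.71 and 5.79 in knockout samples against 5.62, 5.78 and 5.72 in wild-type samples, a difference of 0.06 (SE 0.06, 95% interval -0.08 to 0.21, adjusted p = 0.688). The groups overlapped. Psmb9, which takes the place of Psmb6, read 7.51, 7.50 and 7.61 against 7.57, 7.56 and 7.48, a difference of 0.003 (SE 0.06, interval -0.13 to 0.14, adjusted p = 0.984). The ranges overlapped, with the highest array a knockout and the lowest a wild-type. Psmb10, the counterpart of Psmb7, read 7.35, 7.31 and 7.37 in the knockout and 7.06, 7.32 and 7.49 in the wild-type (0.05, SE 0.10, interval -0.17 to 0.28, adjusted p = 0.844). The wild-type arrays spread on both sides of the knockout arrays, and without wild-type replicate 1, the lowest, the difference was -0.06.

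Of the genes of the PA28 activator, Psme1, the alpha subunit, read 8.53, 8.56 and 8.61 in the knockout and 8.71, 8.69 and 8.76 in the wild-type. No knockout value reached the wild-type range, and the difference was -0.15 (SE 0.05, interval -0.28 to -0.03), with an unadjusted p of 0.021 and an adjusted p of 0.339. Over the alternatives Psme1 lay between -0.22 and -0.10. Psme2, the beta subunit, read 7.59, 7.46 and 7.41 against 7.27, 7.63 and 7.44 (0.04, SE 0.09, interval -0.17 to 0.25, adjusted p = 0.882), with overlapping groups. The difference between Psme1 and Psme2 was not tested. They lie 2 steps apart in the order of protein-coding genes on their chromosome. The median of the 5 genes was -0.05, with 3 lower, without wild-type replicate 1, and -0.02, with 4 lower, when the mean Y-linked level was a covariate, a term largely shared with the genotype.

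**Figure D3:**
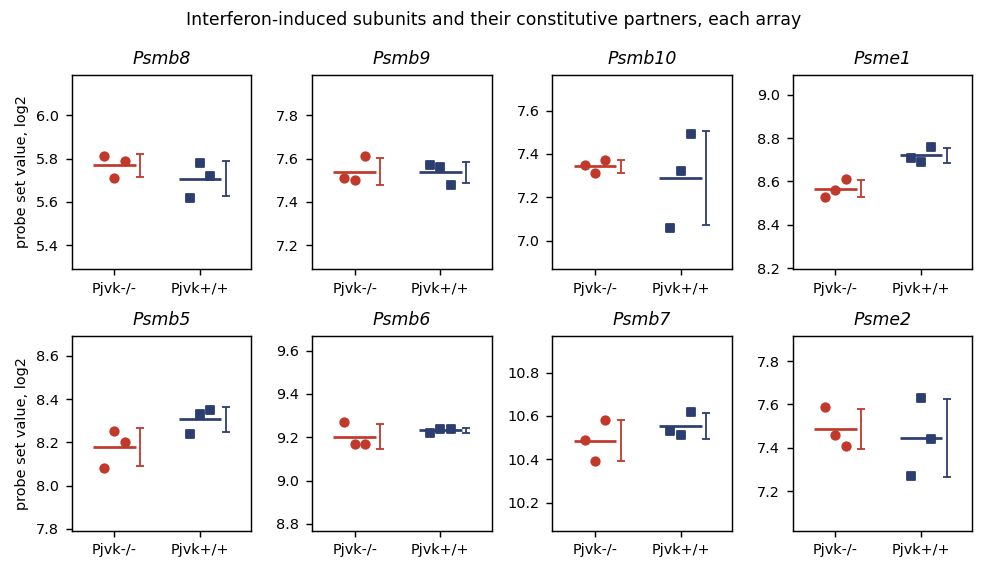
Probe set values (log2) in each array for the interferon-induced catalytic subunits Psmb8, Psmb9 and Psmb10 above their constitutive counterparts Psmb5, Psmb6 and Psmb7, and for the activator pair Psme1 and Psme2. Points are arrays (red circles Pjvk-/-, blue squares Pjvk+/+), horizontal lines group means and bars on the right of each group its SD (n = 3), and all panels have the same span, with an origin other than 0. In the panel of Psme1 the genotypes do not overlap.

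The constitutive counterparts were read on the same arrays. Psmb5, the chymotrypsin-like site, read 8.08, 8.25 and 8.20 in the knockout and 8.24, 8.33 and 8.35 in the wild-type (-0.13, SE 0.07, adjusted p = 0.44). Of the knockout arrays only the highest passed the lowest wild-type array. Psmb6, the caspase-like site, differed by -0.03 (SE 0.06, adjusted p = 0.841) and Psmb7, the trypsin-like site, by -0.07 (SE 0.07, adjusted p = 0.691), both with overlapping groups. The balance within each pair was taken as the log2 value of the induced subunit minus that of the constitutive one in each array, which is read only for its difference between genotypes. For Psmb8 minus Psmb5 it was -2.27, -2.54 and -2.41 in the knockout and -2.62, -2.55 and -2.63 in the wild-type. The knockout arrays all lay above the wild-type arrays, knockout replicate 2 by very little, and the difference was 0.19 (SE 0.08). The two-sided exact permutation p was 0.1, which 3 arrays against 3 cannot go below, and p = 0.3 adjusted over the 3 pairs. After quantile normalization this difference was 0.08 and after cyclic loess 0.09, and the permutation test was not run after either scaling. Psmb8 lay in level decile 3, where all genes had a median of 0.07, and Psmb5 in decile 8, with a median of -0.06. This balance thus also holds the trend with level, whose part in it was not tested. Psmb9 minus Psmb6 differed by 0.03 (SE 0.07, exact permutation p = 0.7, adjusted p = 0.7) and Psmb10 minus Psmb7 by 0.12 (SE 0.11, exact permutation p = 0.5, adjusted p = 0.7). None of the 3 balances passed its test in this design.

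Interferon-stimulated genes read lower in the knockout arrays as a list. Of a list of 31 such genes 26 were measured, and all 26 were lower in the knockout, with a median of -0.29 and a range from -1.04 to -0.09. None of them passed over all genes (lowest adjusted p = 0.0534, for Oasl2), 21 were lower at an unadjusted p under 0.05, against 6.66% of all genes, and 17 did not overlap, against 11.3% of all genes with the knockout lower. The list overlaps one that earlier results on these data singled out, so its direction is not independent evidence. Rtp4, a chaperone for receptor transport, read 6.38, 6.54 and 6.34 in the knockout and 7.58, 7.24 and 7.12 in the wild-type (-0.89, SE 0.11, adjusted p = 0.0595). Iigp1, an immunity-related GTPase that interferon gamma induces, differed by -0.51 (SE 0.08, adjusted p = 0.13). Irf9 and Stat2, which act in the response to type I interferon, differed by -0.25 and -0.26 (SE 0.05 and 0.08), and Irf1, which drives immunoproteasome genes, by -0.09 (SE 0.07, adjusted p = 0.591). All 26 genes stayed lower under quantile normalization (median -0.31) and cyclic loess (median -0.32), where 4 of the 5 interferon-induced subunits stayed above 0 (medians 0.04 and 0.03). With the Y-linked covariate 23 of the 26 were lower (median -0.20). The difference between both lists was not tested, since the lists were drawn up with results of these arrays known.

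**Figure D4:**
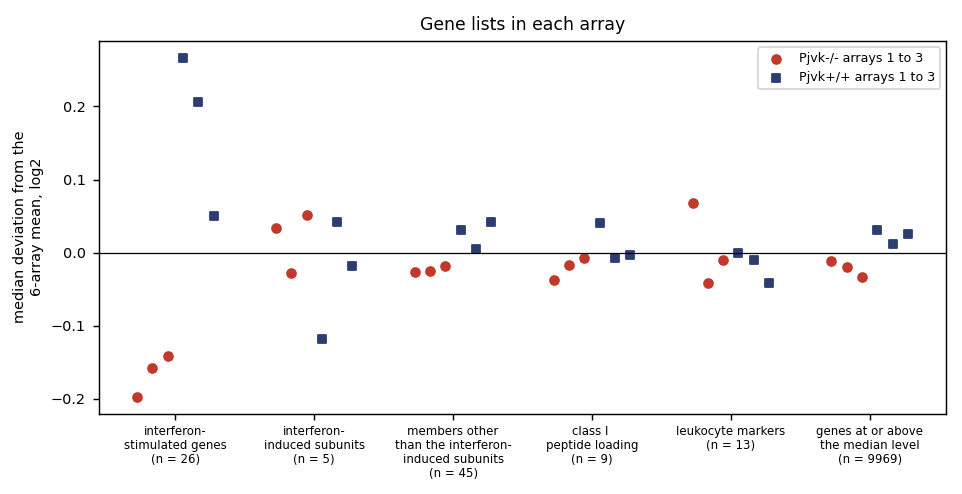
Median deviation of the genes of each list from their mean over the 6 arrays (log2), one point per array, red circles for Pjvk-/- and blue squares for Pjvk+/+. For the interferon-stimulated genes the knockout arrays lie at -0.20, -0.16 and -0.14 and the wild-type arrays at 0.27, 0.21 and 0.05, while for the interferon-induced subunits the knockout arrays (0.03, -0.03 and 0.05) overlap the wild-type arrays (-0.12, 0.04 and -0.02).

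The sequence before the transcription start of Psmb8, Psmb9 and Psme1, 3 of the 5 interferon-induced subunits, is shown beside that of Psmb5 and of 2 interferon-stimulated genes, to set the letters that interferon-activated factors read next to the values above. Each is the 250 bases before the start on the gene's own strand, 5′ to 3′, from RefSeq on build GRCm38.p6, which is not stated to be the build of the array annotation. Capitals mark matches on either strand to GAAA, any 2 bases and GAAA again (the core of the interferon-stimulated response element), TTCNNNGAA (the site of STAT factors), TGACNNNGC (the core of the antioxidant response element, which NRF1 and NRF2 bind) or CCAAT (the box of NF-Y).
Psmb8: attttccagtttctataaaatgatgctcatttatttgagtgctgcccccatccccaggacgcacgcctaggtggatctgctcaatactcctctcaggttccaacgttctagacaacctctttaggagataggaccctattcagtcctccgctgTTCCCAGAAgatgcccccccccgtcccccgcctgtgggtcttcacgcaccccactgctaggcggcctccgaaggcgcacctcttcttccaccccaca
Psmb9: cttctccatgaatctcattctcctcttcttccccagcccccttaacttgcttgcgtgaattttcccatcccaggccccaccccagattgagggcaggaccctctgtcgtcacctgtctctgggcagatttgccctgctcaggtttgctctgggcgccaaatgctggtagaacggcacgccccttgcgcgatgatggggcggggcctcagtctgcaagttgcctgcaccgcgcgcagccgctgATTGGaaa
Psme1: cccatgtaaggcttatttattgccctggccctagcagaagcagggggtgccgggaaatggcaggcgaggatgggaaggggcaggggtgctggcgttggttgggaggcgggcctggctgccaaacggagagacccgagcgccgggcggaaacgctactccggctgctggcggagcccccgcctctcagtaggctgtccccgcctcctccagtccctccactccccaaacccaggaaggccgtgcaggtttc
Psmb5: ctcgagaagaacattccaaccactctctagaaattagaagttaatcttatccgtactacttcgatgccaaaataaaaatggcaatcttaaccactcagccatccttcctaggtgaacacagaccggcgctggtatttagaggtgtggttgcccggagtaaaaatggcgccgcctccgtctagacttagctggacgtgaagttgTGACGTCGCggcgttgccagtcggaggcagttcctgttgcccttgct
Ifit3: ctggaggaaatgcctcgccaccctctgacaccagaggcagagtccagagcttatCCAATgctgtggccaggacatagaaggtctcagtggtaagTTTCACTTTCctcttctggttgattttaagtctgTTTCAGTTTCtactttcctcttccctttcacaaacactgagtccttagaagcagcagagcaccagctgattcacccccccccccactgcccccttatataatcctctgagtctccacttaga
Irgm1: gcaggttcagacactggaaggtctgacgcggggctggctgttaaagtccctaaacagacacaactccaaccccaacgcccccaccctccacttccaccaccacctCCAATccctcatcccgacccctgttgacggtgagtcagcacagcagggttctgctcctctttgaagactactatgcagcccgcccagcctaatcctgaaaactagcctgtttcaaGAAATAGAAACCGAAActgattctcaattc
These windows lie at chr17:34197945-34198194 (+ strand) for Psmb8, chr17:34187331-34187580 (- strand) for Psmb9, chr14:55578244-55578493 (+ strand) for Psme1, chr14:54617996-54618245 (- strand) for Psmb5, chr19:34583279-34583528 (+ strand) for Ifit3 and chr11:48871421-48871670 (- strand) for Irgm1.

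The window of Psmb8 held 1 match to the STAT site, at bases -97 to -89 before its start, that of Psmb9 a CCAAT box at -8 to -4 and that of Psmb5 the antioxidant core at -47 to -39. Ifit3 (-1.04, SE 0.19) held the interferon core at -156 to -147 and at -122 to -113, and Irgm1 (-0.50, SE 0.09) held 2 overlapping copies at -30 to -15. The window of Psme1 held none of the 4, nor did that of Psmb10 or the first of the 2 listed for Psme2, which are not printed. The interferon core was present for none of the 5 induced subunits, for 7 of 17 measured interferon-stimulated genes with a window (41.2%), for 3 of 42 members with a window (Psmb3, Psmd4 and Psmd9) and for 3.46% of all genes. The STAT site was found for 2 members, Psmb8 and Psmg1 (8.13% of all genes), the antioxidant core for 5 of 42 members (11.5% of all genes) and the CCAAT box for 16 of 42 (37.5% of all genes). These matches describe letters in a short window and show neither binding nor its absence. Psmb9 and Tap1, the peptide transporter gene, start back to back: the longer windows of the RefSeq table, which also run past the start, lie on opposite strands and share 275 bases.

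Genes that handle the peptides downstream of the proteasome were mixed. Of 11 listed genes for class I peptide loading 9 were measured, 4 lower and 5 higher, with a median of 0.01, and none was called. Tap1, the next gene to Psmb9, read 6.60, 6.49 and 6.53 in the knockout and 6.55, 6.59 and 6.46 in the wild-type, with a difference of 0.01 (SE 0.06), and Tap2, the next gene to Psmb8, differed by 0.07 (SE 0.07). Both overlapped between genotypes, as Psmb8 and Psmb9 did. B2m, the light chain of class I molecules, read 10.53, 10.40 and 10.22 in the knockout and 10.89, 10.69 and 10.95 in the wild-type (-0.46, SE 0.10, adjusted p = 0.178), without overlap. It lies on the chromosome of Pjvk, 556 protein-coding genes away. Tapbp, which holds empty class I molecules at the transporter, differed by -0.17 (SE 0.06, adjusted p = 0.331). Nlrc5, the activator of class I genes, went the other way at 0.20 (SE 0.08, adjusted p = 0.366), and was at -0.01 with the Y-linked covariate.

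Leukocytes carry immunoproteasomes, and their markers were read beside the induced subunits. All 13 listed markers were measured, with 5 lower and 8 higher, with a median of 0.02 and none called. The mean level of the list was 6.94 to 7.04 in the knockout and 6.95 to 7.0 in the wild-type, with the groups overlapping. C1qa and Tyrobp, genes of macrophages, differed by -0.13 (SE 0.06) and 0.10 (SE 0.06), and Cx3cr1 by 0.18 (SE 0.09), none of them past the adjusted test. After cyclic loess 7 of the 13 were lower (median -0.01).

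The alpha ring gates the core. Of its 8 genes 7 were lower and Psma3 was higher, with a median of -0.08 and a range from -0.12 to 0.04. Psma2 read 8.99, 9.06 and 9.0 in the knockout and 9.15, 9.06 and 9.19 in the wild-type (-0.12, SE 0.06, adjusted p = 0.442), with a shared value of 9.06 in both genotypes. Psma4 differed by -0.08 (SE 0.06, adjusted p = 0.573) and was the 1 alpha gene without overlap. Psma8, the alpha subunit of the testis, had a dim signal, between 5.12 and 5.34 in all arrays, and differed by -0.11 (SE 0.06, adjusted p = 0.467). The 3 probe sets of Psma3 gave 0.04, 0.07 and 0.04. For Psma5 the probe sets disagreed, with -0.08 for the brighter one and 0.00 for the other. The pairs gave -0.08 and -0.05 for Psmb3, 0.05 and 0.00 for Psmc1, and -0.06 and -0.01 for Psmd2. After quantile normalization 6 of the 8 alpha genes were lower (median -0.03).

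The 7 constitutive beta genes were all lower, between -0.14 and -0.02, with a median of -0.07. Psmb2 read 8.72, 8.60 and 8.49 against 8.66, 8.73 and 8.84 (-0.14, SE 0.08, adjusted p = 0.471), with the highest knockout array above the lowest wild-type array. Psmb3 differed by -0.08 (SE 0.05, adjusted p = 0.541) and was the 1 gene of the ring without overlap. With quantile normalization or cyclic loess 4 of the 7 were lower (medians -0.03 and -0.02). Psmb11, the beta subunit found in the thymic cortex, read between 5.93 and 6.23 in all arrays and differed by 0.11 (SE 0.08, adjusted p = 0.598).

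The ATPases of the cap and its other subunits were read as separate groups, and the difference between their medians was not tested. The 6 ATPases, which unfold the substrate, had a median of -0.01, with 5 lower and Psmc1 higher. Psmc4 differed by -0.05 (SE 0.06), Psmc1 by 0.05 (SE 0.06) and Psmc5 by -0.03 (SE 0.05), with adjusted p-values from 0.725 to 0.836. Their direction depended on the scaling: 1 of 6 was lower after quantile normalization and none after cyclic loess (median 0.04 with each). All 11 non-ATPase subunits were lower, between -0.12 and -0.01, with a median of -0.07. Psmd14, the deubiquitinase that strips the ubiquitin chain, read 9.20, 9.13 and 9.11 in the knockout and 9.34, 9.21 and 9.25 in the wild-type (-0.12, SE 0.06, adjusted p = 0.436). Its knockout and wild-type ranges were separate. Psmd4, a ubiquitin receptor, was also without overlap (-0.11, SE 0.06, adjusted p = 0.464), as was Psmd13, while Psmd3 differed by -0.11 (SE 0.06, adjusted p = 0.489) with a shared range. With quantile normalization or cyclic loess 7 of these 11 were lower (median -0.02 with each).

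**Figure D5:**
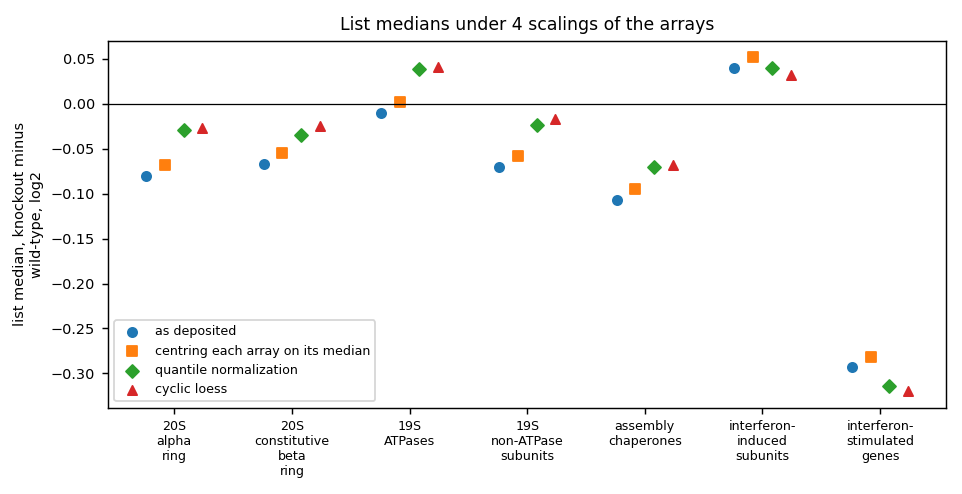
Median knockout minus wild-type difference (log2) of the core, cap, assembly chaperone and interferon-induced subunit groups and of the interferon-stimulated genes. Values are as deposited (circles), centred on the array medians (squares), quantile normalized (diamonds) or scaled by cyclic loess (triangles). The medians of the core and cap groups move toward or past 0 with the last 2 scalings (from -0.01 to 0.04 for the ATPases), and those of the interferon-stimulated genes stay between -0.32 and -0.28.

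Assembly chaperones held the widest differences, in 2 genes of low level, Psmg3 and Psmg4. Both lay in level decile 4, where all genes had a median of 0.05, and Psmg4 had the largest standard error of the members. Of 7 genes 6 were lower and 1 higher, with a median of -0.11, and the same 6 to 1 count was found under quantile normalization and cyclic loess (median -0.07 with each). Psmg3, a chaperone of alpha ring assembly, read 6.65, 6.58 and 6.62 in the knockout and 6.42, 6.47 and 6.34 in the wild-type. Each knockout array was above each wild-type array, and the difference was 0.21 (SE 0.06, unadjusted p = 0.00656, adjusted p = 0.273). It lay between 0.17 and 0.27 over the alternatives. Psmg4, its partner in the same step, went the other way: 5.98, 5.82 and 6.01 in the knockout against 5.92, 6.21 and 6.37 in the wild-type (-0.23, SE 0.11, adjusted p = 0.425). Wild-type replicate 1 lay inside the knockout range, and the difference was between -0.58 and -0.13 over the alternatives. Psmd10, which helps to build the ATPase ring and is known as gankyrin, differed by -0.14 (SE 0.06, adjusted p = 0.419). Psmd5 and Psmd9, which act in that step too, differed by -0.12 and -0.08 (SE 0.06 each).

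Of the remaining regulators, Psme3, the nuclear activator subunit PA28 gamma, read 9.19, 9.17 and 9.19 in the knockout and 9.23, 9.23 and 9.25 in the wild-type (-0.05, SE 0.05, adjusted p = 0.676), a small difference without overlap. Psme4, the activator PA200, differed by -0.05 (SE 0.07, adjusted p = 0.758) and Psmf1, the inhibitor PI31, by -0.003 (SE 0.07, adjusted p = 0.984). Psmc3ip and Psme3ip1, the genes that are no subunits, differed by 0.08 (SE 0.06) and -0.02 (SE 0.05). The 6 members on the chromosome of Pjvk lay between -0.12 and -0.003. Psmd14, the nearest, is 99 protein-coding genes from Pjvk.

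Some partners of the proteasome do not carry a Psm symbol. Of 17 listed genes 14 were measured, 12 lower and 2 higher, with a median of -0.06 and none called. Uchl5, a cap deubiquitinase, read 8.41, 8.52 and 8.47 in the knockout and 8.78, 8.60 and 8.71 in the wild-type (-0.23, SE 0.07, adjusted p = 0.273). Usp14, the other deubiquitinase that binds the cap reversibly, read 9.12, 9.17 and 9.10 against 9.37, 9.29 and 9.25 (-0.17, SE 0.06, adjusted p = 0.317). Both were without overlap, as was the ubiquitin shuttle gene Ubqln4 (-0.14, SE 0.06, adjusted p = 0.373). In all, 6 of the 14 genes had all knockout arrays lower, against 18.5% of the genes at or above the median level, where all 14 lay. Of the 14 genes 7 were lower after quantile normalization (median -0.01), and Uchl5 itself lay between -0.28 and -0.175 over the alternatives.

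Regulators of proteasome genes and the p97 unfoldase pathway gave 7 lower and 2 higher of 9 measured genes (median -0.05, none called), and 4 lower and 5 higher after quantile normalization. Nfe2l2, which encodes NRF2, differed by -0.24 (SE 0.06, adjusted p = 0.241), without overlap. It lies 10 protein-coding genes from Pjvk. Nfe2l1, which encodes NRF1, differed by -0.05 (SE 0.05, adjusted p = 0.702), Nfyc, a subunit of NF-Y, by -0.12 (SE 0.05, adjusted p = 0.405) and Ufd1, a cofactor of p97, by -0.09 (SE 0.06, adjusted p = 0.559). Of the ubiquitin and E1 genes only Uba6, an alternative ubiquitin-activating enzyme, was measured by a probe set with 1 symbol. It read 8.70, 8.62 and 8.62 in the knockout and 8.93, 8.83 and 8.74 in the wild-type (-0.19, SE 0.07, adjusted p = 0.334), and -0.02 with the Y-linked covariate.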

How the data were processed

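Total RNA (100 ng per array) was labelled for an Affymetrix mouse gene ST array, per the labels' protocols. The authors deposited log2 values, made with the Affymetrix Expression Console per the submitters' processing notes; the sources used here do not give its settings, and the log2 scale was read from the values (2.02 to 14.08). Symbols of the 21789 probe sets with 1 gene symbol were updated through gene identifiers (21698 matched GRCm38.p6). The probe set with the highest mean stood for a gene. The genotypes were compared by lmFit and eBayes of limma 3.58.1 under R 4.3.3, with 4 residual and 4.59 prior degrees of freedom, and p-values were adjusted by Benjamini-Hochberg over 19938 genes. Called means an adjusted p under 0.05 in this fit, the source of every adjusted p of a gene unless another setting is named. Precision is limited by the 6 arrays (median standard error 0.07). The step was tested on simulated data.

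The members and lists were chosen with earlier results of these data known. Named were the interferon-induced subunits and their counterparts, the members of other tissues or that are no subunit, and Pjvk. Of each role the up to 3 genes of smallest p were named. The same held for each list, except that fewer or none were named of the hair cell, supporting cell, skeletal muscle, melanocyte and Y-linked lists. Further genes (Ifit3, Irgm1, Irf1, Irf9, Stat2, Tap1, Tap2, Nfe2l1, Psmd5, Psmd9, Psmd13, Psma3, Psma5, Psmc1 and Psmd2 by probe set) were named after their values were seen. Alternatives were filters on dim genes, quantile, median and cyclic loess scaling, other probe set choices, trended priors, a Y-linked covariate, a replicate block and each array left out.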

Additional observations from a re-analysis of the deposited data

How the results depend on the processing

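No member was called under any of the 16 alternatives. The number of all genes called was 7, and it was 20 among genes above the 25th level percentile, 45 among those above the median, 112 with trended and robust priors, 0 with the Y-linked covariate, 1 with the replicate block, and 2 to 6 with 1 array left out. The cause of these shifts was not tested. The members' median of -0.0533 moved to -0.0054 with quantile normalization, -0.0417 with median centring and -0.0015 with cyclic loess, and ran from -0.06 to -0.0467 with 1 array left out. The median of the interferon-induced subunits ran from -0.0483 to 0.0683 with 1 array left out. Psmb8 minus Psmb5 shrank to 0.0806 (quantile) and 0.0854 (cyclic loess; 0.125 to 0.26 with 1 array left out). Psmb10 minus Psmb7 was -0.0956 with the Y-linked covariate (0.0167 to 0.187 with 1 array left out), and Psmb9 minus Psmb6 ran from -0.0183 to 0.0817 in the latter. 

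The sign of these uncalled genes changed. With quantile normalization the differences were 0.0158 for Psmb6, 0.0225 for Psmc5, 0.0394 for Psme3ip1 and 0.0528 for Psmf1, and with cyclic loess 0.0227, 0.0152, 0.0317 and 0.05 for the same genes and 0.0026 for Psmc4. With median centring Psmf1 was at 0.0083. With the Y-linked covariate Psmb8 was at -0.0061, Psmb10 at -0.27, Psme2 at -0.0187, Psme4 at 0.111, Psmf1 at 0.0512, Nlrc5 at -0.0057, and Eif2s3y at 0.0457 and Uty at 0.019, both of which are part of that covariate. With 1 array left out, Psmb10 ran from -0.0617 (without wild-type replicate 1) to 0.1533, Psme2 from -0.0483 to 0.1317, Psme3ip1 from -0.0367 to 0.0017 and Psmf1 from -0.0717 to 0.0483. Psmb9 was at -0.0317 and -0.025 without knockout or wild-type replicate 3, Psme2 at -0.0117 and -0.0483 without knockout or wild-type replicate 1, and Psme3ip1 at 0.0017 without wild-type replicate 3. Psmf1 was at 0.0233 without knockout replicate 2 and at 0.0483 and 0.0133 without wild-type replicates 1 and 3.

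Deviations of same-numbered arrays correlated at 0.08, 0.02 and -0.01, and those of differently numbered arrays at -0.11 to 0.09. With 3 arrays per genotype these values cannot decide whether the replicate numbers of the titles pair the samples. The replicate block left the members' median at -0.0533 and reduced the calls over all genes from 7 to 1. Dct (adjusted p = 0.137) and Ttn (adjusted p = 0.0583) were no longer called, with their differences still at -1.86 and -0.95.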
